A study of Mus musculus with 4 samples.

Results

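Transcripts of 9 homologous recombination repair genes, Brca1, Brca2, Bard1, Rad51ap1, Rad54l, Blm, Exo1, Chek1 and Fancd2, were read in colonic epithelial cells of mice labelled for loss of Bmi1, of Mel18, of both or of neither in intestinal epithelium. The genes were chosen by name, with earlier results of these data known, so their counts are not those of an independent list. All 27 of their probe sets were taken from the 45037 probe sets of the array, which represent 18193 named genes. The series holds 4 Affymetrix mouse expression arrays, 1 for each genotype label: Bmi1ΔIEC, Mel18ΔIEC, Bmi1ΔIEC Mel18ΔIEC (DKO) and wild type (WT), in which ΔIEC marks loss in intestinal epithelial cells. All mice, WT included, were C57BL/6, 6 to 8 weeks old and sex-matched, and all received azoxymethane, an alkylating colon carcinogen, at 10 mg/kg, followed 5 days later by 3.5% dextran sulfate sodium, a chemical that injures the colon lining, in drinking water for 5 days. Cells were released from the opened colon with EDTA on day 12, with no sorting step in the labels' protocols. The labels name neither the Cre driver nor the number of mice behind an array. With 1 array per genotype no difference has a replicate check, and no p-value or error across arrays is given.

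Homologous recombination repairs breaks in DNA by copying the intact sister chromatid, and so works mainly in S and G2 phase. Broken ends are first resected to single strands, which then pair with the sister and are resolved after synthesis. Chek1 holds the cell cycle while replication forks are damaged, and Fancd2 directs the repair of crosslinks between the strands. In the colon these genes are active in the dividing cells of the crypt. Bmi1 and Mel18 (gene symbol Pcgf2) are related subunits of Polycomb repressive complex 1, which silences genes through histone H2A ubiquitination.

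Values are RMA intensities in linear units as deposited, and differences are on the log2 scale, knockout minus WT unless stated. Array medians were 32.1 units (Bmi1ΔIEC), 32.9 (Mel18ΔIEC), 34.1 (DKO) and 34.2 (WT). The floor was 33.4 units, the median of all values. A gene, read from its brightest probe set, was tested in a comparison when the higher of its values on the 2 arrays reached the floor, and it counted as lower or higher when the arrays then differed at least 2-fold. Bmi1 has a pair of probe sets, and both read higher on Bmi1ΔIEC (334 and 339 units) and DKO (432 and 399) than on WT (116 and 88.4). On Mel18ΔIEC they read 160 and 135 units, also above WT. The brighter Pcgf2 probe set read 39.8 on Mel18ΔIEC, 32.0 on DKO and 30.2 on WT. Whether these probes lie in deleted exons is not given, so the labels could not be checked by the targeted transcripts, and each array is called by its label. All 10 epithelium markers, such as Epcam and Vil1, reached the floor, and their summed level was 60524 units on Bmi1ΔIEC, 63441 on Mel18ΔIEC, 73706 on DKO and 71769 on WT. Of these markers Krt20, a keratin of mature surface cells, was lower on Bmi1ΔIEC, at 2730 units against 6668 on WT (-1.29), and the other differences from WT did not pass the rule.

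On DKO 6 of the 9 repair genes were at least 2-fold lower than on WT (Rad51ap1, Brca1, Chek1, Exo1, Rad54l and Blm), where 2.19% of all genes tested were lower, and Brca2 stood just short of the rule. On Mel18ΔIEC 3 were lower (Brca1, Rad54l and Exo1), where 2.5% of all genes tested were, and on Bmi1ΔIEC 0 were, where 2.86% were. Bard1 and Fancd2 never reached the floor and were not tested. None of the 7 genes tested was higher on a knockout array, where 5.76% of all genes tested were higher on Bmi1ΔIEC, 3.15% on Mel18ΔIEC and 2.13% on DKO. Over all 9 genes the median difference from WT was -0.54 on Bmi1ΔIEC, -0.82 on Mel18ΔIEC and -1.42 on DKO. These are bulk cells, in which fewer dividing cells and less RNA per dividing cell cannot be told apart.

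**Figure D1:**
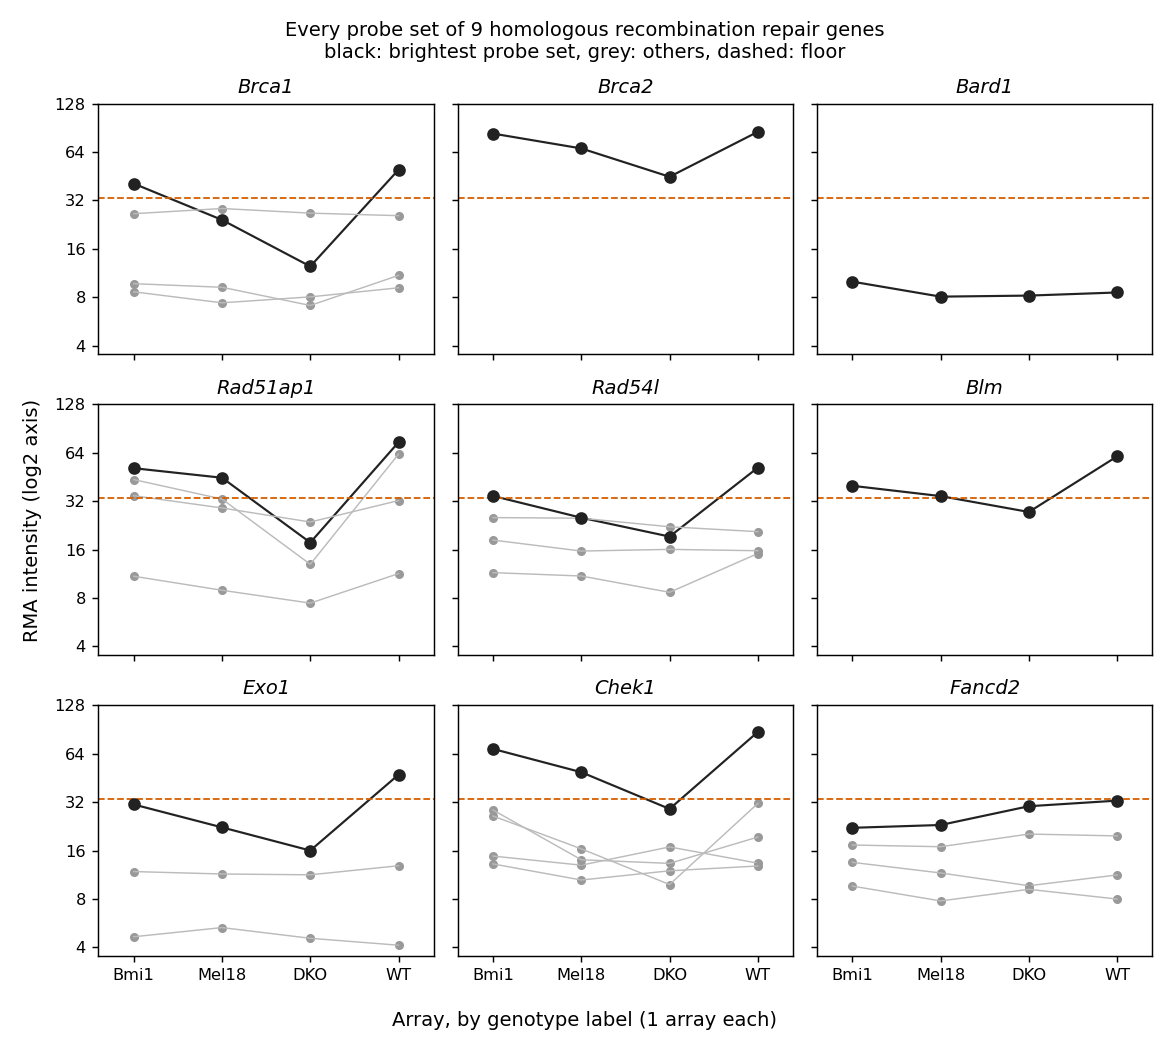
RMA intensity (log2 axis) of every probe set of the 9 genes on the 4 arrays, 1 point per array, with the brightest probe set in black, the others in grey and the floor of 33.4 units dashed. In the black lines of 7 genes DKO is the lowest point, followed by Mel18ΔIEC, Bmi1ΔIEC and WT, whereas Bard1 stays near 8 to 10 units and Fancd2 under the floor.

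Rad51ap1 encodes a DNA-binding protein that stimulates strand pairing. It read 51.4 units on Bmi1ΔIEC, 44.8 on Mel18ΔIEC and 17.7 on DKO, against 74.6 on WT. DKO stood apart from the other 3 arrays, which all lay above the floor. The difference of -2.07 on DKO ranked 36 from the lowest among 11853 genes tested. Rad51ap1 was also the single one of the 9 past the 2-fold rule between DKO and Mel18ΔIEC, at -1.34, where 4.53% of genes tested were lower.

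Rad54l, a motor protein that moves along DNA during strand exchange, read 34.5 units on Bmi1ΔIEC, 25.3 on Mel18ΔIEC and 19.3 on DKO, against 51.8 on WT. Its differences from WT were -0.59, -1.04 and -1.42 in that order, so it was lower by the rule on Mel18ΔIEC and DKO. The Mel18ΔIEC and DKO values both lay under the floor.

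Brca1, a ubiquitin ligase with Bard1 that promotes resection and brings Brca2 to the break, read 40.7 units on Bmi1ΔIEC, 24.2 on Mel18ΔIEC and 12.4 on DKO, against 49.7 on WT. It was 4.00-fold lower on DKO than on WT by its brightest probe set, rank 39 of 11853 from the lowest, and 2.05-fold lower on Mel18ΔIEC. Bmi1ΔIEC, at -0.29, did not pass the rule. Its partner Bard1 read 10.0 units on Bmi1ΔIEC, 8.07 on Mel18ΔIEC and 8.19 on DKO, against 8.56 on WT, all far under the floor, so no direction is given. Brca2, which acts on the resected single strands, read 83.4 units on Bmi1ΔIEC, 67.4 on Mel18ΔIEC and 44.9 on DKO, against 85.5 on WT. It was the single gene of the 9 at the floor on all 4 arrays, and its DKO value was 1.90-fold lower than WT (-0.93), short of the rule.

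Exo1, the exonuclease that resects broken ends and also serves mismatch repair, read 30.9 units on Bmi1ΔIEC, 22.3 on Mel18ΔIEC and 16.0 on DKO, against 47.4 on WT. WT was the single array on which it reached the floor, so it entered the comparisons only through that array. Its differences from WT were -0.62, -1.09 and -1.57. Blm, the helicase that unwinds joined recombination intermediates and helps resection, read 39.9 units on Bmi1ΔIEC, 34.5 on Mel18ΔIEC and 27.5 on DKO, against 60.9 on WT. Only its DKO difference of -1.15 passed the rule.

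Chek1, the checkpoint kinase that acts below Atr, read 68.5 units on Bmi1ΔIEC, 49.1 on Mel18ΔIEC and 29.0 on DKO, against 87.5 on WT. Its DKO value was 3.01-fold lower than WT, rank 78 of 11853 from the lowest. Fancd2, the Fanconi protein that is ubiquitinated at crosslinks, read 22.1 units on Bmi1ΔIEC, 23.1 on Mel18ΔIEC and 30.2 on DKO, against 32.7 on WT. DKO was here the knockout array nearest to WT, but every value lay under the floor.

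**Figure D2:**
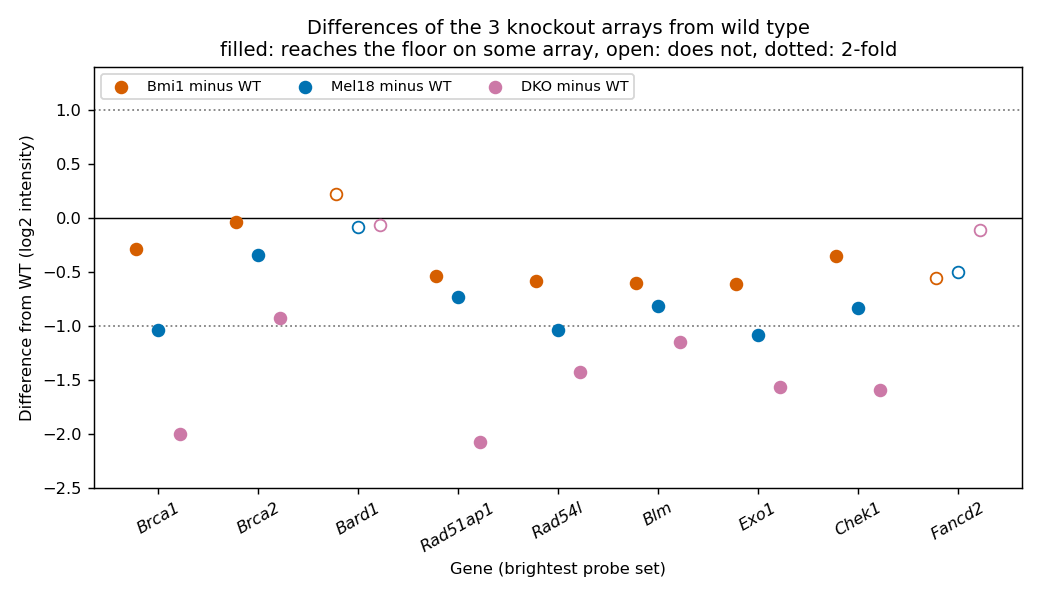
Log2 difference of each knockout array from WT for the brightest probe set of each gene, with dotted lines at 2-fold and open circles for genes that never reached the floor. For the 7 filled genes the Bmi1ΔIEC point lies highest and the DKO point lowest, between -0.93 for Brca2 and -2.07 for Rad51ap1.

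The promoters of the 3 genes with the largest DKO differences that have a window in the RefSeq table (GRCm38.p6), from 250 bases before to 50 after the start, are printed to show which letters of cell cycle motifs they hold. Capitals mark CCAAT, bound by NF-Y, and GGCGGGAA, a form of the E2F site, on either strand. Windows lie at chr6:126939538-126939837, minus strand, at chr11:101551906-101552205, minus strand, and at chr9:36726609-36726908, minus strand, and each is written 5′ to 3′ along the gene.
Rad51ap1: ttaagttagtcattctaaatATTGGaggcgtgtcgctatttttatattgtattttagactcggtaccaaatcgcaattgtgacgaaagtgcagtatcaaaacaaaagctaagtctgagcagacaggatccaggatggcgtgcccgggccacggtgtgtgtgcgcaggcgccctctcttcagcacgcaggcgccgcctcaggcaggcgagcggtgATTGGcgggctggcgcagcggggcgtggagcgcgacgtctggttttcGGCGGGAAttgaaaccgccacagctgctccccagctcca
Brca1: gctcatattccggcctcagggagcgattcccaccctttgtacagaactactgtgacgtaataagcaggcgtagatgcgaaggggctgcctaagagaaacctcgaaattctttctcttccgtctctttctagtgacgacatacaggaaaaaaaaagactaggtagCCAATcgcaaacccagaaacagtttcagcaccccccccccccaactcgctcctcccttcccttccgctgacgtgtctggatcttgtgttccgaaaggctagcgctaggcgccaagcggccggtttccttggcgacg
Chek1: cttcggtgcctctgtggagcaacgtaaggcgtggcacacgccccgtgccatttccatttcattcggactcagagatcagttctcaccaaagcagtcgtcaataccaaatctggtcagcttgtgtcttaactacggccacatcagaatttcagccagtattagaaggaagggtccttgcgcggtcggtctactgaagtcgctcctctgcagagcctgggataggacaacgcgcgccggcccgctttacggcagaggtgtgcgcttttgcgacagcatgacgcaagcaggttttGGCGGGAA
Of the 9 genes 7 had a window, 6 of them genes that reached the floor. Shares are set against the 9794 promoters of genes at the floor and, after these, all 27025 promoters. CCAAT was found in 4 of the 6 (Brca1, Rad51ap1, Rad54l and Blm), against 38.0% and 37.9%. TTTGAA, the core of the cell cycle element CHR, was found in 0 of the 6, against 11.7% and 18.1%. The window of Bard1, which is not among the 6, did hold TTTGAA. The E2F words TTTGGCGC, TTTGCCGC, TTTCGCGC and TTTCCCGC were found in 1 of 6 (Brca2), against 4.07% and 2.32%, and in the window of Bard1. GGCGGGAA, which shares 7 letters with the reverse complement of TTTCCCGC and was searched after these words had been counted, was found in 2 of 6 (Rad51ap1 and Chek1), against 3.96% and 2.24%. A match is a run of letters and was not tested as a binding site.

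The 3 calls on Mel18ΔIEC lay close to the rule, from -1.04 to -1.09. With each array centred on its median, or after quantile normalization, 1 call was left there (Exo1). Between DKO and Bmi1ΔIEC, Brca1 (-1.71), Rad51ap1 (-1.54) and Chek1 (-1.24) were lower, where 7.96% of all genes tested were lower. For all 7 genes that reached the floor the levels ran in the order DKO, Mel18ΔIEC, Bmi1ΔIEC, WT from low to high, an order shown by 3.23% of the 12154 genes at the floor and looked for after the values had been seen. The order is not particular to them: 16 of 26 DNA replication genes at the floor (61.5%) showed it, as did 5 of 19 mitosis genes (26.3%) and 3 of 16 other damage checkpoint genes (18.8%). Some of its steps lie among values under the floor, as between DKO and Mel18ΔIEC for Brca1, Rad54l and Exo1. Bmi1ΔIEC and WT differed by -0.04 for Brca2, which left the order with arrays centred on their medians (0.06), and Chek1 left it with the mean over all probe sets (0.03). The counts against WT all share the WT array.

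The loss of Bmi1 and of Mel18 was also read on both backgrounds. Differences for the same loss share no array, but both losses use the same 4 arrays. For each gene the change between backgrounds is the same number for either loss, and equals the non-additive term given below. The values for Bmi1 loss and Mel18 loss are therefore a single reading of that change, not separate ones. Bmi1 loss went with -0.54 for Rad51ap1 on the WT background and -1.34 on the Mel18ΔIEC background, and with -0.35 and -0.76 for Chek1. Mel18 loss went with -0.73 for Rad51ap1 on the WT background and -1.54 on the Bmi1ΔIEC background, with -0.83 and -1.24 for Chek1, and with -1.04 and -1.71 for Brca1. For Brca2 the values were -0.04 and -0.585 with Bmi1 loss, and -0.34 and -0.89 with Mel18 loss. Other genes differed less on the second background. Blm lay at -0.61 and -0.33 with Bmi1 loss, and at -0.82 and -0.54 with Mel18 loss. Rad54l lay at -1.04 and -0.84 with Mel18 loss. Both values lay under the floor for Brca1, Rad54l and Exo1 between DKO and Mel18ΔIEC, and for Exo1 between DKO and Bmi1ΔIEC, so no direction is given there. The non-additive term, which is 0 when the DKO difference from WT equals the sum of both single-knockout differences on the log2 scale, ran from -0.80 (Rad51ap1) to 0.28 (Blm), values under the floor included. It reached 1 in size for 0 of 7 genes, against 27.3% of genes at the floor. Its median was -0.41 over the 7 genes, with 4 below 0. Over all 12154 genes at the floor the median was -0.21, with 7271 below 0, so a negative term is not particular to the repair genes. Recentring the arrays shifts the term by the same amount for every gene. Centred on genes at or above the floor, Chek1 lay at -0.58 on Bmi1ΔIEC, -0.99 on Mel18ΔIEC and -1.59 on DKO against WT, which is near additive.

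Probe sets of the same gene often disagreed. Of the 6 genes with several probe sets, 5 had some past the 2-fold rule on DKO and others not, and 4 had differences of opposite sign with one of them over 0.5 in size. In those 5 genes every set that did not pass was under the floor on both DKO and WT, so it could not be called. Only Rad51ap1 had more than 1 set at the floor in that comparison, and both of its 2 passed. The other genes allow no such check. Over all 27 probe sets the DKO difference from WT ran from -2.28 to 0.34, with a median of -0.44, 20 below 0 and 7 above. The floor was reached on at least 1 array by 9 of the 27, and since a set could reach it through the WT array alone, nothing is read from how these differ from the other 18. Brca1, Rad54l, Exo1 and Chek1 each had 1 probe set at the floor and Rad51ap1 had 3.

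Among the Rad51ap1 probe sets, 1448899_s_at read 43.7 units on Bmi1ΔIEC, 33.0 on Mel18ΔIEC and 13.0 on DKO, against 62.9 on WT, and so followed the brightest one, with -2.28 on DKO. The third, 1417940_s_at, read 34.7, 29.1 and 23.8 units on the knockout arrays in the same order and 32.3 on WT, a DKO difference of -0.44 with both values under the floor. For Chek1 the dim 1450677_at, at 26.2, 16.4, 9.83 and 31.4 units in the order Bmi1ΔIEC, Mel18ΔIEC, DKO and WT, gave -1.68 on DKO, where the brightest set gave -1.59, but this dim set never reached the floor. Another Chek1 set, 1439208_at, read 28.6 units on Bmi1ΔIEC against 19.4 on WT, a difference of 0.56 in the opposite direction to the brightest set, under the floor on both arrays. For Brca1 the dim 1427698_at stayed between 25.7 and 28.5 units on all 4 arrays while the brightest set ranged from 12.4 to 49.7. The dim sets of Rad54l differed from WT on DKO by between -0.80 and 0.10, and those of Exo1 by -0.19 and 0.14. When all probe sets of a gene were averaged, 3 of the 9 genes reached the floor against WT, of which 2 were lower on DKO (Rad51ap1 and Blm) and 0 on Mel18ΔIEC. Of these 3, Blm and Brca2 have 1 probe set each, so averaging could not change them and was a check of Rad51ap1 alone. Of all genes tested in that way, 169 of 10440 were lower on DKO and 231 of 10501 on Mel18ΔIEC.

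**Figure D3:**
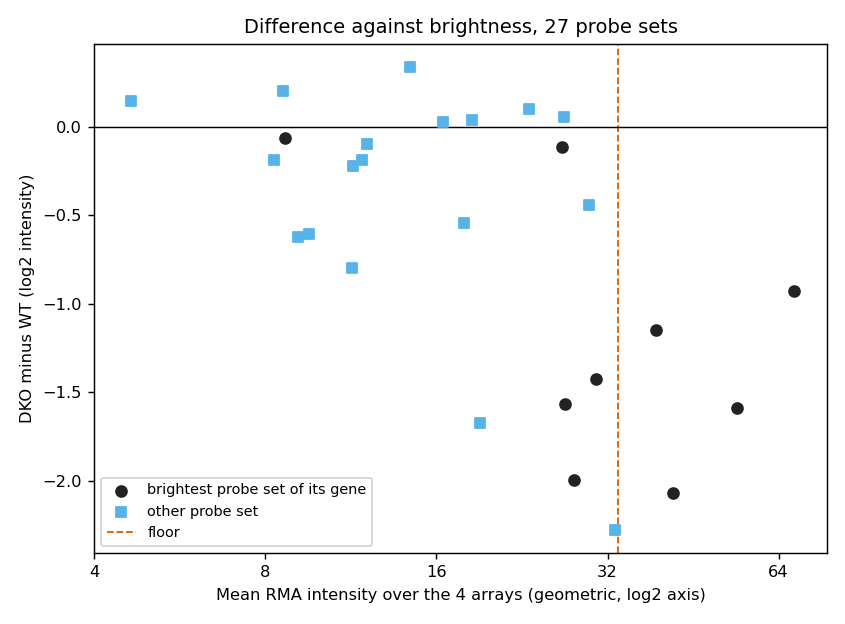
DKO minus WT difference (log2) of each of the 27 probe sets against its mean intensity over the 4 arrays (log2 axis), with the floor dashed. Differences past -1 are found at means above about 16 units. The dimmer sets lie from -0.80 to 0.34, most of them below 0.

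The sizes on DKO also rest on dim values, since Brca2 was the single gene at the floor on that array. With every value under the floor raised to it, an alternative added after seeing the data, Chek1 (-1.39) and Rad51ap1 (-1.16) still passed the 2-fold rule on DKO, and 0 of the repair genes passed on Mel18ΔIEC. Of all genes tested, 224 of 11853 were then lower on DKO and 257 of 11862 on Mel18ΔIEC. Under that setting Brca1 lay at -0.58 on both arrays.

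The other genes of the pathway were read from fixed lists. Of 26 other homologous recombination genes tested on DKO, 2 were lower and 0 higher, with a median of -0.22. The lower ones on DKO were Fignl1, an ATPase of the recombination pathway, which read 23.4 units on DKO against 73.2 on WT (-1.65), and Dna2, a nuclease of resection, which read 31.7 on DKO against 80.4 on WT (-1.34). Zswim7, a subunit of the Shu complex, was the 1 of 27 that was higher on Bmi1ΔIEC, at 136 units against 65.2 on WT (1.06). Of all genes tested 5.76% were higher there, so nothing is read from this count. Palb2, which links Brca1 to Brca2, read 59.1 units on Bmi1ΔIEC, 42.6 on Mel18ΔIEC and 57.1 on DKO, against 70.4 on WT, and did not pass the rule. Rad51c, a subunit of the BCDX2 and CX3 complexes, read 50.9, 42.2 and 48.1 units on the knockout arrays in the same order and 58.9 on WT, also within 2-fold.

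Of 13 other Fanconi anemia genes tested on DKO 1 was lower, Ube2t, the conjugating enzyme that ubiquitinates Fancd2. It read 26.5 units on DKO against 66.0 on WT (-1.32), while Bmi1ΔIEC was above WT at 118 units. Of 15 other damage checkpoint genes tested on DKO 4 were lower. Wee1, the kinase that holds Cdk1 inactive, read 87.4 units on DKO against 296 on WT (-1.76), and Clspn, the adaptor through which Atr reaches Chek1, read 24.5 against 71.3 (-1.54). Timeless, which guards the replication fork, lay at -1.40, and Topbp1, an activator of Atr, at -1.10. On Bmi1ΔIEC and Mel18ΔIEC 0 of 16 checkpoint genes passed the rule.

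Repair routes that do not use recombination were read in the same way. Of 7 end joining genes tested 0 passed on Mel18ΔIEC or DKO, whereas 2 were higher on Bmi1ΔIEC. Xrcc5, the larger Ku subunit, read 200 units on Bmi1ΔIEC against 61.9 on WT (1.69), and the ligase partner Xrcc4 lay at 1.21. Of 4 mismatch repair genes tested on DKO 1 was lower, Msh6, with 56.5 units on DKO against 127 on WT (-1.17). Of 13 base excision and direct reversal genes tested on DKO 1 was lower, Ung, which removes uracil from DNA, with 42.9 units on DKO against 126 on WT (-1.55).

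Of 26 DNA replication genes tested on DKO 19 were lower and 0 higher, with a median of -1.19, among them the helicase subunits Mcm5 (-2.32), Mcm6 (-2.28) and Mcm7 (-1.64), Rrm2 of deoxynucleotide synthesis (-2.15), Uhrf1 (-1.71) and cyclin Ccne2 (-1.66). On Mel18ΔIEC 3 of 26 were lower (Rrm2 at -1.73, Mcm5 at -1.31 and Mcm3 at -1.06), with a median of -0.54, and on Bmi1ΔIEC 1 was (Rrm2 at -1.17), with a median of -0.10. Mitosis genes lay at -0.78 on DKO with 4 of 19 lower (Top2a at -1.45, Mki67 at -1.44, Bub1 at -1.42 and Aurkb at -1.30). They lay at 0.00 on Mel18ΔIEC and 0.15 on Bmi1ΔIEC with 0 past the rule. The median of all genes tested was 0.13 on Bmi1ΔIEC, 0.07 on Mel18ΔIEC and -0.01 on DKO, and housekeeping genes lay at 0.21, 0.15 and 0.00 in that order with 0 of 9 past the rule.

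**Figure D4:**
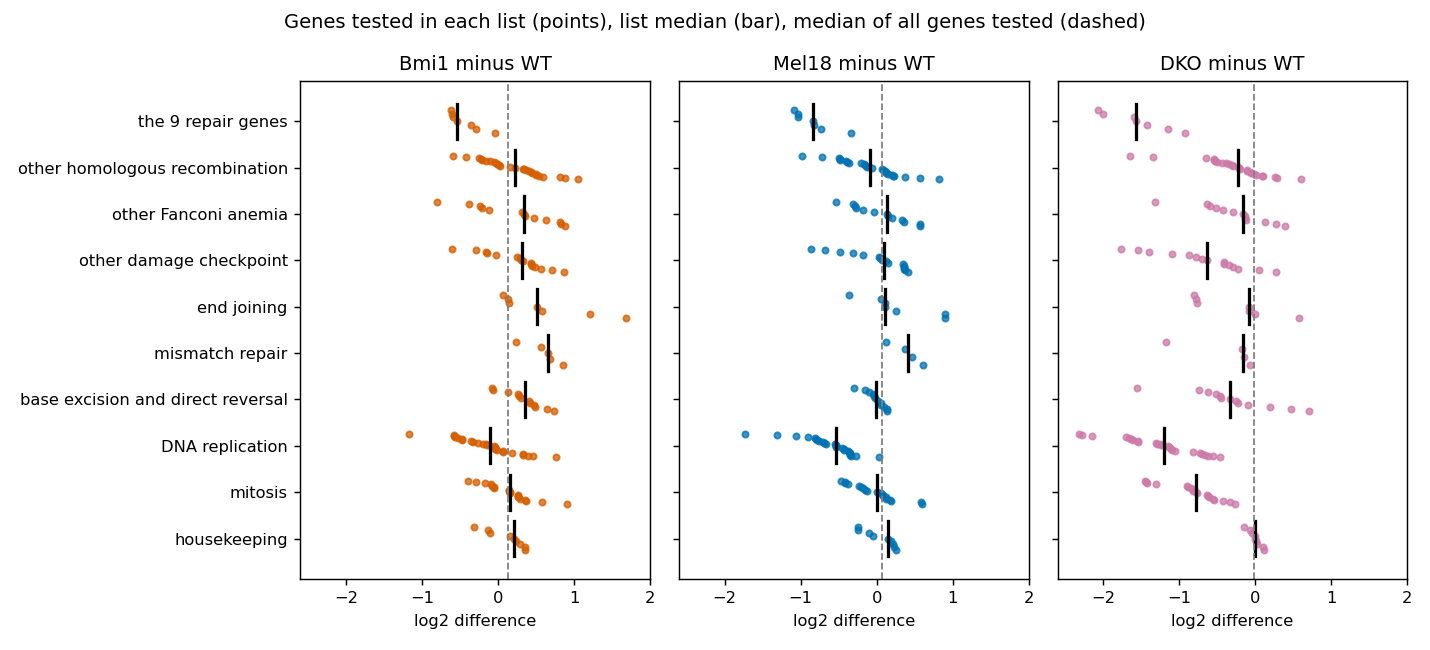
Log2 difference from WT of each gene tested in 10 lists on the 3 knockout arrays, with the list median as a bar and the median of all genes tested dashed. The 7 repair genes tested have the lowest median of the 10 lists on each array, followed by the DNA replication list, at -1.19 on DKO. Of the 9 repair genes 1 was at the floor on DKO and 7 on WT, so most entered through the WT array. They were also chosen with earlier results of these data known, so nothing is read from their rank among the lists.

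The genes whose levels followed the repair genes most closely were taken from the 12154 at the floor by the root mean square difference between their centred log2 values on the 4 arrays and the mean profile of the 7 repair genes at the floor. Clspn was nearest at 0.07, followed by Mcm7 at 0.08, Ccne2 at 0.08, Fads1 (a fatty acid desaturase) at 0.10, the replication licensing factor Cdc6 at 0.10 and Pop1 (a subunit of RNase P) at 0.11. Chek1 itself lay at 0.05 from that mean and Rad51ap1 farthest of the 7 at 0.25. A likeness over 4 arrays describes these arrays alone.

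Markers of other cell types differed between the arrays as well. The summed neutrophil markers (6 found, 4 at the floor) read 167 units on Bmi1ΔIEC, 238 on Mel18ΔIEC and 2004 on DKO, against 2179 on WT, with 3 of 4 lower on each single knockout and 0 on DKO. Macrophage markers summed to 1007, 1527 and 3085 units against 2528 on WT, with 5 of 7, 1 of 7 and 0 of 7 lower. Fibroblast markers summed to 1186, 3332 and 4991 units against 3122 on WT, with 4 of 6 lower on Bmi1ΔIEC and 0 on the others. T cell markers summed to 353, 304 and 551 units against 402 on WT, with 1 of 5 higher on DKO, and B and plasma cell markers to 984, 914 and 1906 units against 1045 on WT, with 1 of 5 higher on DKO. That B and plasma cell marker was Jchain, at 1686 units on DKO against 789 on WT. In the same list 3 of 5 lay below WT on DKO, and the median difference was -0.29. Smooth muscle markers summed to 3441, 4686 and 4945 units against 5176 on WT, and endothelium markers to 128, 121 and 155 units against 146 on WT, with 0 past the rule in either list. The defining markers Cxcr2 and Mmp8 (neutrophils), Cd5 (T cells), and Pecam1 and Tek (endothelium) lay under the floor on every array. The part of these cells in the repair transcripts was not tested.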

How the data were processed

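Colonic epithelial RNA (200 ng per array) from 4 genotypes was measured on 1 array each. The authors deposited RMA intensities for each probe set, and the submitters' processing notes name Affymetrix Expression Console without a version. The sources used here do not say whether the 4 arrays entered 1 RMA run. The table runs from 3.25 to 22803 units, a linear scale, and log2 was taken without a pseudocount. Of 45037 probe sets, 34945 carried 1 symbol, 932 carried several and 9160 are unnamed in GEO's platform annotation, and 34741 were matched to the GRCm38.p6 gene table. A gene was read from its probe set with the highest mean. The floor was 33.4 units. No test was run, since each genotype has 1 array, and precision is limited by that number. Named genes are every probe set of the 9 genes, list genes past the 2-fold rule (up to 6 per list and comparison), the central partners Palb2 and Rad51c (another is not reported here), the 6 genes most alike and both targeted genes. Of 216 list entries 202 were found. The genes and lists were chosen with earlier results of these data known. Computation used Python 3.11.15, numpy 2.4.6 and pandas 2.3.3. Alternatives were other probe set choices, floors, scalings and a 1.5-fold rule.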

Additional observations from a re-analysis of the deposited data

How the results depend on the processing

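No paired analysis was possible because each genotype has 1 array. The order of the comparisons below is Bmi1ΔIEC, Mel18ΔIEC and DKO against WT, then DKO against Bmi1ΔIEC and DKO against Mel18ΔIEC, and as reported 0, 3, 6, 3 and 1 of the 9 genes passed the rule, all lower. With the floor at percentile 75 (136 units) none of the 9 genes was tested, so 0 passed. The mean over all probe sets gave 0, 0, 2, 0 and 0, the 1.5-fold rule 3, 6, 7, 5 and 3, and values raised to the floor (added after seeing the data) 0, 0, 2, 1 and 0. Of all genes tested, the mean gave 266 of 10614, 231 of 10501, 169 of 10440, 642 of 10663 and 349 of 10553 lower. The 1.5-fold rule gave 899 of 11934, 745 of 11862, 777 of 11853, 2553 of 11966 and 1680 of 11879 lower. Values raised to the floor gave 298, 257, 224, 845 and 476 lower of these same numbers tested. Centring on array medians and quantile normalization each left 1 call on Mel18ΔIEC, where 261 and 311 of 11820 genes tested were lower. Medians of the genes tested, -0.54, -0.83, -1.57, -1.07 and -0.67, stood at -0.25, -0.54, -1.15, -0.72 and -0.46 with the mean over probe sets, which left 3, 3, 3, 2 and 2 genes tested, against 7, 7, 7, 6 and 4 as reported. Over the 7 genes at the floor as reported that mean gave -0.13, -0.36, -0.72, -0.56 and -0.33. With values raised to the floor the last 4 stood at -0.64, -0.87, -0.46 and -0.49. Without a floor the last 2 stood at -0.89 and -0.48, and without probe sets ending _s_at, _x_at or _a_at the Mel18ΔIEC median stood at -1.04 and the last at -0.83. Centred on genes at or above the floor the Bmi1ΔIEC median was -0.78 and 1 gene passed the non-additive rule, against 0 as reported. That median is over 8 genes, against 7 as reported, since Fancd2 was then tested. Its non-additive term was 0.95 as reported, where it lay under the floor. That centring moved the median of all genes on Bmi1ΔIEC to -0.12, against 0.13 as reported, and relative to it the repair genes lay at -0.66 in both. It also moved the share of all calls that were higher on Bmi1ΔIEC to 38.2%, against 66.8% as reported, on Mel18ΔIEC to 36.6%, against 55.8%, on DKO against Bmi1ΔIEC to 61.4%, against 35.1%, and on DKO against Mel18ΔIEC to 62.8%, against 45.9%. Under it 519 of 12041 genes were lower on DKO than on Bmi1ΔIEC, against 953 of 11966 as reported. Of 186 values of single genes under the alternatives, 151 kept their side of the rule, 28 no longer passed and 7 newly passed. Many of these were fixed in advance, so the 151 do not measure robustness. Without a floor all 21 values stayed by construction, since the 7 genes reach the floor on WT. At percentile 75 no gene was tested, so 12 values stayed and 9 no longer passed for that reason alone. With the mean over probe sets 14 stayed, though 3 genes were tested against WT. Where the cause is not in the construction of the alternative, the cause was not tested.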
